A study of Mus musculus with 8 samples.

Results

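The Sox genes other than Sox11 were followed in mouse embryos that lack Sox11. The 9 followed are Sox4 and Sox12 (the SoxC relatives of Sox11), Sox2 and Sox3 (SoxB1), Sox5, Sox6 and Sox13 (SoxD), and Sox8 and Sox9 (SoxE), and Sox11 itself was taken along as the targeted gene. A probe set was used when the platform's annotation gave it exactly 1 gene symbol and that symbol was one of these 10, out of 19356 genes measured in all. Each of the 10 genes had 1 such probe set, so no choice between probe sets was needed.

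The arrays held RNA from the caudal area of dissected urogenital ridges at E10.75 (embryonic day), from 4 Sox11 knockout (Sox11-/-) and 4 wild type (wildtype) samples described as biological replicates. All animals were on a mixed genetic background, and the labels name no treatment. The labels do not say whether a sample was 1 embryo or a pool, how the Sox11 allele was made, or whether litters were shared. Each value is a log2 signal made with RMA, which removes background, brings the arrays to 1 distribution and combines the probes into a value per probe set. Such a signal is relative, so genes were compared by their differences between the genotypes. Levels were set between genes only as a rough guide, against olfactory receptor genes as background and against genes of like or higher signal. In bulk tissue fewer cells that express a gene and less of its RNA per cell cannot be told apart.

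Sox proteins bind DNA through an HMG box that fits into the minor groove and bends the helix, and they usually act next to a partner factor. The family is divided into groups by the likeness of the HMG box, and members of a group often share expression domains and can stand in for one another in part. Sox4, Sox11 and Sox12 act in neural and mesenchymal progenitors, and Sox8 and Sox9 act together at the tips of the ureteric bud, the epithelial outgrowth of the nephric duct that branches to form the collecting system of the kidney. The question of the comparison was whether the relatives of Sox11 were higher in ridges without it.

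Sox HMG boxes prefer short sites with a central ACAA, so windows around the gene starts were searched for the letters ACAAAG and ACAATG on both strands. RefSeq windows of 300 bases (250 before and 50 after the start, GRCm38.p6) were found for 8 of the 10 genes, with 6 windows for Sox6, and 7 of the 13 windows held a match. Those windows belonged to 3 genes: Sox2 and Sox5 had 1 each, and the rest were starts of Sox6. The count over windows therefore rests mostly on Sox6. Over 32851 windows of all genes 28.6% held a match (18.7% for ACAAAG and 12.6% for ACAATG). The windows of Sox4 and Sox12 are shown because these relatives are the main comparison, and that of Sox5 because it had the lowest p among the 9 genes. Matched letters are in capitals, and the windows shown lie on the minus strand and are written 5′ to 3′ along the gene. The Sox4 window is chr13:28953650-28953949, that of Sox12 is chr2:152397997-152398296 and that of Sox5 is chr6:143947057-143947356.
Sox4: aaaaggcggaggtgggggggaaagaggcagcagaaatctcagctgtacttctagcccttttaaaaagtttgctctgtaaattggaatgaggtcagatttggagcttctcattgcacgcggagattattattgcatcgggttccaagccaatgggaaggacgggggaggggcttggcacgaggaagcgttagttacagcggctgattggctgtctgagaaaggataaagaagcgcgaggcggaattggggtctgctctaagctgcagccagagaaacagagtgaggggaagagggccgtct
Sox12: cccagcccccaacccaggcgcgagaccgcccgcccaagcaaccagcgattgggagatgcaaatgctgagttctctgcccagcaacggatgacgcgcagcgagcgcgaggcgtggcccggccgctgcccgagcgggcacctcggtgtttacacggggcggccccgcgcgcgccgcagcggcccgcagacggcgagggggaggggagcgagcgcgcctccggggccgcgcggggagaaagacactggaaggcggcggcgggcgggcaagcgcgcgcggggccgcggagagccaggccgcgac
Sox5: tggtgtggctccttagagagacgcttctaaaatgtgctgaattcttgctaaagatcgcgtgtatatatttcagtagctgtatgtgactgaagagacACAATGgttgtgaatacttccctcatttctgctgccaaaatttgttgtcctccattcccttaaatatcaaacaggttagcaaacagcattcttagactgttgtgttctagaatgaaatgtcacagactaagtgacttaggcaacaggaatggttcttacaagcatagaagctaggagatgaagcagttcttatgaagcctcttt
The Sox5 window held 1 match, ACAATG, and those of Sox4 and Sox12 held none of these letters, which describes the windows and says nothing of binding.

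Sox11 gave a log2 signal of 9.24, 9.13, 8.93 and 9.12 in knockout replicates 1 to 4, against 11.76, 11.81, 11.72 and 11.86 in wild type replicates 1 to 4. Every knockout array was below every wild type array. The change was -2.69 (SE 0.08, 95% interval -2.86 to -2.52, limma adjusted p = 6.36e-08), the lowest p of all 19356 genes. A signal of this size remained in the knockout arrays above that of olfactory receptor genes, which are unlikely to be transcribed in this tissue: the 95th percentile over 772 of these genes was 6.50 over the 8 arrays. The labels do not say whether the Sox11 probes fall within the stretch that was deleted.

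None of the 9 relatives passed the threshold of an adjusted p under 0.05, which 1.44% of all genes did. Their changes ran from -0.22 for Sox5 to 0.20 for Sox4, and 6 of the 9 lay above 0, against 9650 of all 19356 genes. The median of the 9 was 0.02, against 0.00 (-0.0005) over all genes and -0.04 (-0.0401) over genes above the median signal. At an unadjusted p under 0.05 limma counted 1 of the 9, Sox5, against 16.7% of all genes; that is 0 higher against 7.29% and 1 lower against 9.38%. The count of 0 higher rests on the scaling and on single arrays: Sox4 had an unadjusted limma p of 0.0303 after median centring, 0.0412 after a further quantile normalization, 0.0266 without wild type replicate 2 and 0.0463 without wild type replicate 3, and Sox8 had 0.0144 without wild type replicate 2. In 0 of the 9 did the arrays of the genotypes lie apart, which held for 10.5% of all genes (4.04% with knockout higher and 6.47% with knockout lower). The smallest size of change called among all genes was 0.28, larger than any of the 9 measured changes.

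**Figure D1:**
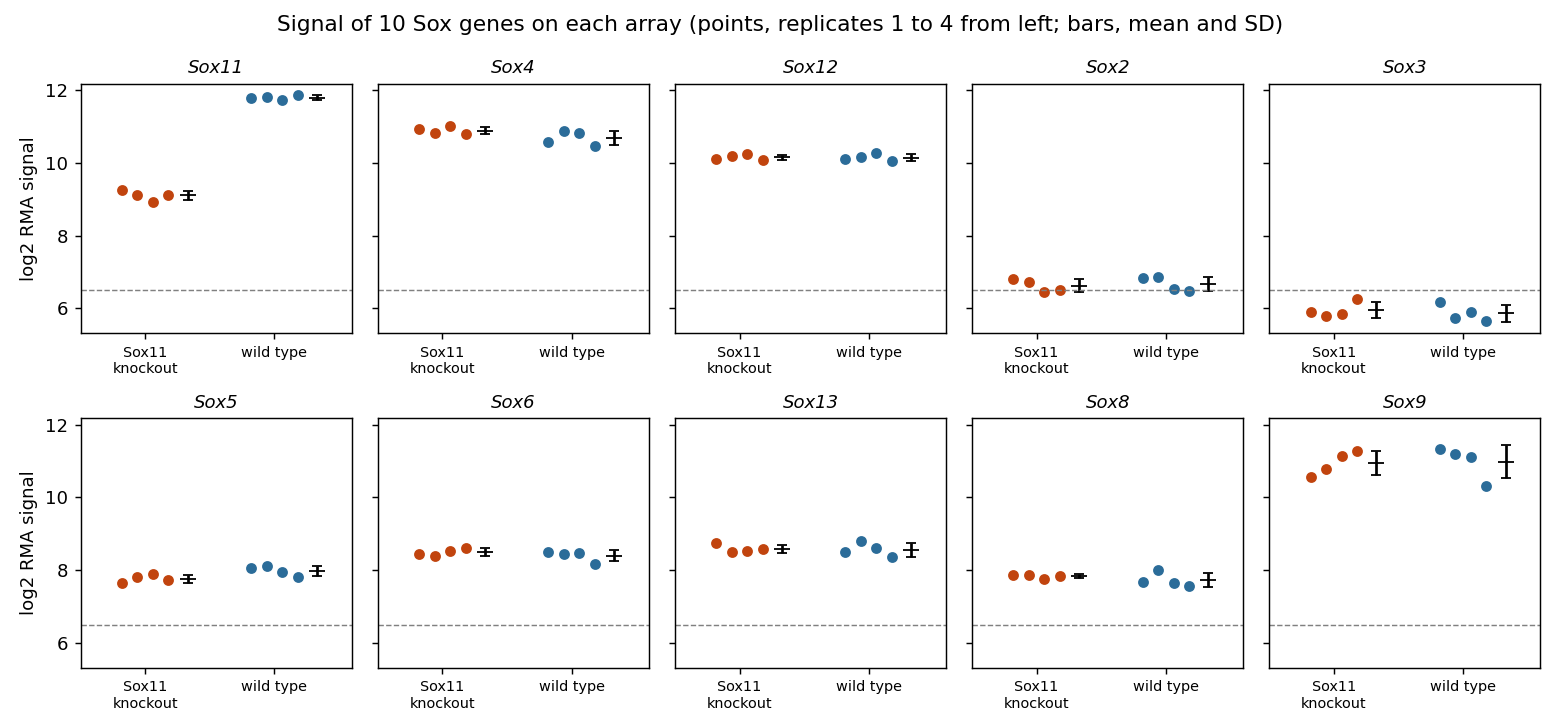
Log2 RMA signal (vertical axis) of 10 Sox genes in 4 Sox11 knockout and 4 wild type arrays, with replicates 1 to 4 from left to right; bars give the mean and SD, and the dashed line is 6.50, the 95th percentile of 772 olfactory receptor genes. The arrays of the genotypes lie apart for Sox11 alone among these 10 genes, Sox9 has the widest spread of the other 9, and Sox3 lies below the line on every array.

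Among the SoxC relatives, Sox4, which supports the survival and differentiation of neural and mesenchymal progenitors, gave 10.93, 10.80, 11.00 and 10.79 in knockout replicates 1 to 4, against 10.57, 10.88, 10.83 and 10.45 in wild type replicates 1 to 4. All 4 knockout arrays were above the wild type mean and 2 were above every wild type array, but the genotypes overlapped. Sox4 averaged 10.88 ± 0.10 in knockout and 10.68 ± 0.20 in wild type ridges (SD, n = 4 each). The change of 0.20 (SE 0.10, 95% interval -0.03 to 0.43) did not pass the test (limma adjusted p = 0.354). On a linear scale this was 1.15-fold with an interval of 0.98 to 1.34, beside the 6.44-fold lower signal of Sox11. The interval lay above 0 after median centring (0.03 to 0.44) and after a further quantile normalization (0.01 to 0.44), and its upper bound reached 0.49 without wild type replicate 2 or 3. The exact permutation test over the 8 arrays gave a two-sided p of 0.171, where 4 against 4 arrays allow 0.0286 at the lowest.

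Sox12, a weaker activator than its SoxC relatives, gave 10.11, 10.18, 10.24 and 10.09 in knockout replicates 1 to 4, against 10.11, 10.14, 10.26 and 10.03 in wild type replicates 1 to 4. These ranges all but coincided. Its change was 0.02 (SE 0.07, 95% interval -0.14 to 0.17, limma adjusted p = 0.921), which puts a rise beyond 1.13-fold outside the interval. This was the narrowest interval among the 9 genes. The change of Sox4 exceeded that of Sox12 by 0.18, and this difference had an exact two-sided permutation p of 0.0857 (0.257 after adjustment over the 6 pairs of relatives within a Sox group). A single pair at the smallest possible permutation p, 0.0286, comes to 0.171 after this adjustment, so no single pair could pass.

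The SoxB1 genes are best known from neural progenitors, and Sox2 also from pluripotent cells. Sox2 gave 6.82, 6.73, 6.45 and 6.52 in knockout replicates 1 to 4, against 6.83, 6.85, 6.54 and 6.48 in wild type replicates 1 to 4. It was above the 95th percentile of olfactory receptor genes of the same array on 6 of the 8 arrays, and its change was -0.05 (SE 0.11, 95% interval -0.30 to 0.20, limma adjusted p = 0.865). Sox3, an X-linked gene, gave 5.91, 5.78, 5.85 and 6.27 in knockout replicates 1 to 4, against 6.17, 5.75, 5.89 and 5.64 in wild type replicates 1 to 4. No array put Sox3 above that percentile, so its signal lay within the range of genes unlikely to be transcribed here. Its change was 0.09 (SE 0.13, 95% interval -0.20 to 0.38, limma adjusted p = 0.769). Of 9 measured markers of neural tube progenitors 4 also lay at or below that percentile on every array, and 0 of the 9 passed.

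The SoxD proteins lack an activation domain of their own, and Sox5 and Sox6 work with Sox9 in cartilage. Sox5 gave 7.64, 7.82, 7.89 and 7.72 in knockout replicates 1 to 4, against 8.06, 8.13, 7.96 and 7.82 in wild type replicates 1 to 4. All 4 knockout arrays were below the wild type mean and 2 were below every wild type array, with an overlap through wild type replicate 4. The means were 7.77 ± 0.11 in knockout and 7.99 ± 0.14 in wild type (SD, n = 4 each). The change was -0.22 (SE 0.09, 95% interval -0.41 to -0.03), with an unadjusted p of 0.0246, a limma adjusted p of 0.226 and an exact permutation p of 0.0857. By p it ranked 2108 among all genes. Without 1 array the change ranged from -0.28 to -0.18 and the limma adjusted p from 0.124 (without wild type replicate 4) to 0.432 (without knockout replicate 1). The interval took in 0 when knockout replicate 1 or 4 or wild type replicate 1 or 2 was left out, with unadjusted p-values from limma of 0.0745, 0.0590, 0.0611 and 0.0726.

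Sox6 gave 8.46, 8.38, 8.53 and 8.62 in knockout replicates 1 to 4, against 8.51, 8.44, 8.47 and 8.17 in wild type replicates 1 to 4. Its change of 0.10 (SE 0.09, 95% interval -0.10 to 0.30, limma adjusted p = 0.601) lay in the other direction to that of Sox5. Sox13, a SoxD gene known from T cell lineages, gave 8.74, 8.49, 8.52 and 8.58 in knockout replicates 1 to 4, against 8.50, 8.81, 8.61 and 8.35 in wild type replicates 1 to 4, a change of 0.01 (SE 0.10, limma adjusted p = 0.957). The difference between the log2 signals of Sox5 and Sox6 ran from -0.90 to -0.56 in knockout and from -0.51 to -0.31 in wild type arrays. This difference of changes, -0.32, had an exact two-sided permutation p of 0.0286, the smallest that 4 against 4 arrays can give, and 0.171 after adjustment over 6 pairs, so it did not pass. The genotypes did not overlap in this difference, and they did overlap in each of the other pairs within a Sox group. How often genotypes lie apart over pairs of all genes was not computed, and for single genes it was 10.5%. With 6 pairs no single pair can pass after adjustment.

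**Figure D2:**
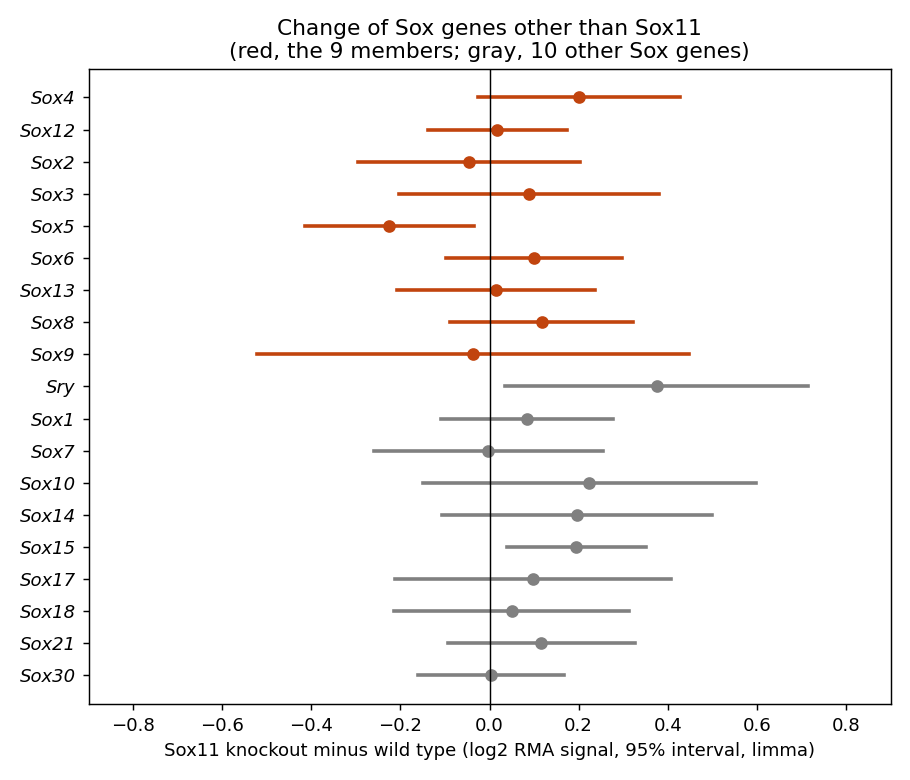
Change of each Sox gene other than Sox11 (horizontal axis, Sox11 knockout minus wild type in log2 RMA signal) with its 95% interval from limma; red marks the 9 genes followed here and gray the 10 other Sox genes, with 4 arrays per genotype. Intervals of Sox5, Sry and Sox15 leave out 0 before adjustment for multiple tests, and none of the 19 genes passed after it.

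The SoxE genes Sox8 and Sox9 act together at the ureteric tip, and Sox9 is also the master factor of cartilage and of testis formation. Sox8 gave 7.88, 7.86, 7.76 and 7.85 in knockout replicates 1 to 4, against 7.68, 8.0, 7.66 and 7.56 in wild type replicates 1 to 4. All 4 knockout arrays were above the wild type mean but within the wild type range, and the change was 0.12 (SE 0.09, 95% interval -0.09 to 0.32, limma adjusted p = 0.549). Without wild type replicate 4 it was 0.06.

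Sox9 gave 10.57, 10.77, 11.15 and 11.27 in knockout replicates 1 to 4, against 11.32, 11.18, 11.11 and 10.31 in wild type replicates 1 to 4. Wild type replicate 4 was lowest of the 8 arrays, knockout replicates 1 and 2 came next, and the other 5 lay close together. The means were 10.94 ± 0.33 in knockout and 10.98 ± 0.46 in wild type (SD, n = 4 each), and the change was -0.04 (SE 0.22, 95% interval -0.52 to 0.45, limma adjusted p = 0.949). This was the widest interval of the 9 genes: on a linear scale it ran from 0.70-fold to 1.36-fold. Without wild type replicate 4 the change was -0.26 (limma adjusted p = 0.405). The direction of Sox9 turned when any of knockout replicates 1 and 2 and wild type replicates 1, 2 and 3 was left out.

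The spread of Sox9 within a genotype stood out. Its pooled SD was 0.40 against a median of 0.12 over all genes, at the 98.5th percentile of all genes and at the 99.4th among 1427 genes within 0.5 of its signal. Sox4 was at the 88.9th percentile of genes of like signal and Sox12 at the 35th. Y-linked genes gave signal on knockout replicates 3 and 4 and wild type replicate 1 (mean log2 signal of Eif2s3y, Kdm5d and Uty from 9.84 to 10.06, against 5.31 to 5.58 on the other arrays). Within each genotype these arrays had the highest Sox9 signal. Wild type replicates 2 and 3, without Y-linked signal, were close at 11.18 and 11.11, against 11.32 in wild type replicate 1. A fit that took the Y-linked signal along put the change of Sox9 at -0.15 (95% interval -0.55 to 0.26, limma adjusted p = 0.736). A link of the Sox9 spread to the Y-linked signal was not tested.

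The genes nearest to Sox9 in pattern, by the root mean square difference between profiles centred on their own mean over the 8 arrays, were Zfp758 (0.11), Cep112 (0.13) and Coa3 (0.17), where Sox9 itself had a root mean square of 0.34 about its mean. Prkca came next at 0.17, a gene named after its values were seen. Cep112, Coa3 and Prkca lie on chromosome 11 like Sox9 in RefSeq's GRCm38.p6, with 20, 150 and 22 measured genes between each of them and Sox9. BC006965, with 0 measured genes between it and Sox9, ranked 14 at 0.20. Of the 20 nearest genes 6 were on chromosome 11, which holds 7.95% of measured genes, whereas among the 20 nearest to each of the other 8 relatives 0 to 2 shared the chromosome. The other 2 of the 6, Zfp39 and Nt5m, lay far from Sox9, with 931 and 903 measured genes between. Of the genes close to Sox9 on the chromosome, Kcnj16 and Sstr2, each with 2 measured genes between, ranked 280 and 668 of all genes. Kcnj2, with 1 measured gene between it and Sox9, ranked 1164. Not all neighbours followed: Gm11681, with 0 measured genes between, ranked 14312, and Slc39a11, with 1 between, ranked 18176. This pattern was looked at after the values were seen and carries no test.

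**Figure D3:**
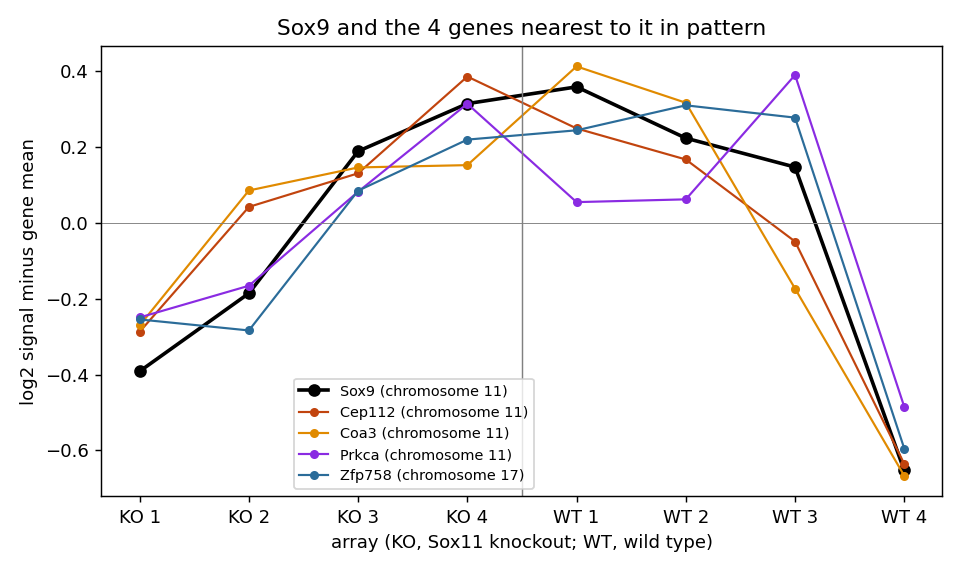
Log2 signal minus the gene's own mean over 8 arrays (vertical axis) for Sox9 and the 4 genes nearest to it in pattern, by array (KO, Sox11 knockout; WT, wild type). All 5 genes are lowest in wild type replicate 4, and 3 of the 4 neighbours in pattern lie on chromosome 11 with Sox9.

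Sox4, with a root mean square of 0.17 about its own mean, was nearest to Rin3, Inpp5a and Gbp7 at 0.056, 0.058 and 0.059. Sox3, with 0.20, was nearest to Pfdn5, Pirt and Gpr135 at 0.083, 0.084 and 0.085, but its own pattern is that of a signal within the olfactory receptor range on all 8 arrays. The genes nearest to Sox11 were Car14, Nlrp5-ps and Pcdhb21, at 0.53, 0.59 and 0.68, where Sox11 had a root mean square of 1.35 about its mean. That these genes were lower in knockout follows from how they were chosen, since the Sox11 profile is itself a step between the genotypes.

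Wild type replicate 4 was the lowest wild type array for all 9 relatives of Sox11, a count made after the values were seen. The same array was lowest of its genotype for 29.2% of all genes, for 39.5% of genes above the median signal and for 4 of the 10 other Sox genes. Relative to the mean of the other 3 wild type arrays it was lower by a median of 0.29 over the 9 genes (-0.29) and differed by 0.0053 over all genes. On the second principal component of all genes, with 18.4% of the variance, this array lay at 21.8 and the other 7 between -14.3 and 5.35. Among wild type arrays, it was also lowest for 8 of 9 erythroid genes and 7 of 10 neuronal genes, but for 1 of 8 genes of the ureteric tip and 1 of 9 cartilage genes. What sets this array apart was not tested. Leaving this array out lowered the change of all 9 relatives. Sox4, Sox8, Sox6 and Sox3 stayed above 0, at 0.12, 0.06, 0.02 and 0.01. Sox12 and Sox13 turned from above 0 to -0.02 and -0.06. Sox2, Sox9 and Sox5, already below 0 on all 8 arrays together, went to -0.11, -0.26 and -0.28. The interval of Sox5 was then -0.46 to -0.10. On the other 7 arrays limma called 0 of the 9 relatives.

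**Figure D4:**
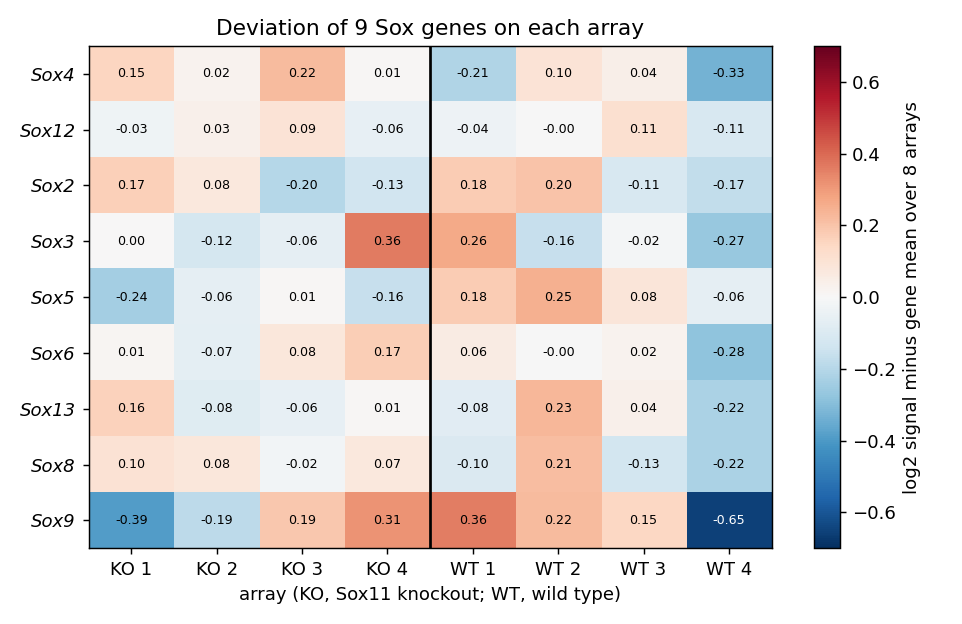
Log2 signal of the 9 relatives of Sox11 on each array minus the gene's mean over 8 arrays (colour and printed value), with Sox11 knockout arrays (KO) left of the line and wild type arrays (WT) right of it. Wild type replicate 4 is the lowest wild type array in every row, and Sox9 reaches -0.65 there.

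The 10 other Sox genes measured were Sry, Sox1, Sox7, Sox10, Sox14, Sox15, Sox17, Sox18, Sox21 and Sox30, and 0 of them passed. Their median change was 0.11 and 9 of 10 lay above 0, against -0.0005 and 9650 of 19356 over all genes. That baseline shifts with signal, since genes above the median signal had a median change of -0.04 (-0.0401). A baseline at the signal of these 10 genes was not computed. Sox15, the SoxG gene known from muscle progenitors, gave 6.92, 6.80, 6.70 and 6.79 in knockout replicates 1 to 4, against 6.66, 6.60, 6.66 and 6.50 in wild type replicates 1 to 4. All 4 knockout arrays were above every wild type array, which held in this direction for 4.04% of all genes, and the change was 0.19 (SE 0.07, limma adjusted p = 0.207). The endothelial SoxF genes Sox7, Sox17 and Sox18 had changes of 0.00 (-0.0026), 0.10 and 0.05 (limma adjusted p from 0.759 to 0.993), beside 0 of 7 endothelial markers past the threshold. Sox7 turned its direction in 8 of 19 alternatives. Sox10, the neural crest factor, was at 0.22 (SE 0.17, limma adjusted p = 0.527).

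Sox1 of the SoxB1 group was at 0.08, Sox14 and Sox21 of the repressing SoxB2 group at 0.20 and 0.12, and Sox30, a SoxH gene of the testis, at 0.00 (0.0030), with limma adjusted p-values of 0.654, 0.493, 0.560 and 0.987. Sry, the Y-linked testis-determining gene, gave 7.65, 7.58, 7.18 and 8.10 in knockout replicates 1 to 4, against 7.28, 7.25, 7.22 and 7.26 in wild type replicates 1 to 4 (change 0.37, SE 0.15, limma adjusted p = 0.254). Knockout replicates 1 and 2, where other Y-linked genes gave no signal, were above knockout replicate 3, where they did, so the signal of this probe set did not follow the Y chromosome.

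Genes that share the HMG box but are not Sox genes had 1 of 16 measured members lower past the threshold, where 1.08% of all genes were, and 0 higher. That gene was Lef1, a nuclear effector of WNT signalling, which gave 8.40, 8.44, 8.50 and 8.49 in knockout replicates 1 to 4, against 8.72, 8.85, 9.15 and 8.99 in wild type replicates 1 to 4. The arrays of the genotypes did not overlap, and Lef1 changed by -0.47 (SE 0.09, limma adjusted p = 0.0379). That call was lost when any array other than wild type replicate 1 was left out (highest limma adjusted p 0.112). Hmgb3, a chromatin protein of progenitor cells, was at -0.24 (limma adjusted p = 0.0931). The median of the 16 was -0.06.

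Of 6 genes reported as targets of SoxC factors, 1 was lower past the threshold (1.08% of all genes were) and 0 were higher (0.362% of all genes), with 5 of 6 below 0, against 9706 of 19356 over all genes, and a median of -0.22. Dcx, which binds microtubules in migrating neurons, gave 7.45, 7.38, 8.19 and 7.79 in knockout replicates 1 to 4, against 8.41, 8.38, 8.83 and 8.90 in wild type replicates 1 to 4. Dcx was lower on all 4 knockout arrays, with a change of -0.93 (SE 0.18, limma adjusted p = 0.0384), and lost its call when any array other than knockout replicate 3 was left out (highest limma adjusted p 0.113). Tead2, a TEAD factor of the Hippo pathway, was at -0.28 (limma adjusted p = 0.0804). In the same arrays 9 of 10 markers of neurons lay below 0, with mean signals from 7.33 to 7.89 in knockout and from 7.49 to 7.92 in wild type, 0 past the threshold, and their part in the value of Dcx was not tested.

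Of 9 cartilage genes that Sox9, Sox5 and Sox6 activate, 0 passed. Of these 7 lay above 0 and the median was 0.12, against 9650 of 19356 and -0.0005 over all genes. Of the 9, 2 lay at or below the olfactory receptor percentile on every array. The baseline shifts with signal, and 1 at the signal of these genes was not computed. Hapln1, which links hyaluronan to proteoglycans, was at 0.28 and Col9a3, a collagen of cartilage, at 0.21 (limma adjusted p = 0.162 and 0.218). Of 8 measured genes of the ureteric tip, where Sox8 and Sox9 act, 1 was higher, 1 lower and 6 did not pass. Over all genes 0.362% were called higher and 1.08% lower. Ret rose by 0.41 (limma adjusted p = 0.0220) and Etv5 fell by 0.40 (limma adjusted p = 0.0368). Of the 8 genes 5 lay below 0 and 3 above it, with a median of -0.16. Ret encodes the GDNF receptor and Etv5 a factor downstream of it. Ret lost its call without knockout replicate 1, 2 or 3 or wild type replicate 2 or 3 (highest limma adjusted p 0.0764), and Etv5 without any array other than wild type replicate 1 (highest 0.101). Of 4 measured neural crest markers 1 was higher, Erbb3, where 0.362% of all genes were. Erbb3, a neuregulin receptor, rose by 0.36 (limma adjusted p = 0.0417). Without each of the 8 arrays in turn its limma adjusted p ran from 0.0569 to 0.113, so Erbb3 was then not called. Foxd3 was at -0.48 (limma adjusted p = 0.229). Of 7 measured partner factors of Sox proteins 0 passed, and Pou3f4 had the lowest p at -0.45 (limma adjusted p = 0.141).

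Over all genes 70 were higher and 209 lower in knockout, and 25.1% of calls were higher, which was 37.4% after median centring, 12.7% without moderation and, when 1 array was left out, 15.9% (wild type replicate 2) to 29.9% (knockout replicate 2). Markers of nephric duct (7 measured) and metanephric mesenchyme (9 measured) were above the olfactory receptor percentile on at least 1 array in every case. Duct markers had mean signals from 9.21 to 9.38 in knockout and from 8.83 to 9.17 in wild type, with 0 past the threshold, and of the mesenchyme markers 1 was lower, Six2, where 1.08% of all genes were. Of 9 sclerotome and somite markers, a tissue where Sox9 and Sox5 are also expressed, 2 were lower, Meox2 and Uncx, against the same 1.08%. Meox1, Uncx and Meox2 were at -0.94, -0.88 and -0.50. Nkx3-2, Tbx18 and Foxc2 were at -0.09, -0.08 and -0.05, and Pax3, Pax1 and Pax9 at 0.16, 0.12 and 0.08. The mean signal of the 9 ran from 7.90 to 8.06 in knockout and from 8.08 to 8.43 in wild type. The part of this tissue in the values of Sox5 and Sox9 was not tested.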

How the data were processed

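The deposited table held a log2 signal for 27478 probe sets on 8 arrays. The authors made these log2 values with RMA, with Partek also listed, per the submitters' processing notes; no version, setting or genome build was given in the sources used here. The log2 scale was read from the values (4.30 to 14.62). RMA cannot show a shift of all transcripts and compresses low signals, and the number of arrays limits the precision. Names came from the platform's annotation (21103 probe sets with 1 symbol, 1531 with several, 4844 with none). The probe set with the highest mean stood for a gene, without a filter on low signal.

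The fit used limma 3.58.1 under R 4.3.3 (lmFit and eBayes, genotype as the only term, two-sided, Benjamini-Hochberg over all 19356 genes, threshold 0.05). Pairs of genes were compared by exact permutation over the arrays. The p-values measure the spread between these samples. The code was tested on simulated data. Members and lists were chosen with earlier results of these data known. The rule for named genes took the members, the other Sox genes, the called genes and 2 lowest p-values of each list, and the 3 nearest patterns of Sox11 and of the 3 relatives with the widest range; not all of them are named. Other normalizations, filters, probe set rules, moderation, array weights, covariates, a replicate block and leaving out each array were tried. A planned comparison of Sox proteins was not made. Figures were drawn with matplotlib 3.10.9.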

Additional observations from a re-analysis of the deposited data

Results flagged for a closer look

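Sox30, which is known from the testis and is not among the 9 relatives followed above, had 1 wild type array apart from the others: replicate 2 gave 6.53, against 6.68 for the nearest and 6.71 for the farthest of the other 3. This gap was 0.84 of the group's range, above Dixon's 95% critical value for 4 samples. It was 1 of 40 groups examined (20 Sox genes in 2 genotypes), and chance gives about 1 in 20.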

How the results depend on the processing

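No alternative brought any of the 9 relatives past the threshold (17 to 19 alternatives each, limma adjusted p from 0.124 for Sox5 to 0.993 for Sox9), and Sox11 passed in all 19. Sox4, Sox6 and Sox8 stayed above 0 and Sox5 below 0 in all 19, and without 1 array they ranged from 0.12 to 0.27, 0.02 to 0.14, 0.06 to 0.21 and -0.28 to -0.18. Changes near 0 turned sign. Without 1 array Sox12 ranged from -0.016 to 0.058, Sox13 from -0.056 to 0.095, Sox2 from -0.11 to 0.013, Sox3 from -0.018 to 0.19 and Sox9 from -0.26 to 0.087, and with array weights Sox12 was at -0.0018 and Sox13 at -0.0080. Among other genes, Sox7 ranged from -0.099 to 0.070, Sox18 from -0.041 to 0.14, Sox30 from -0.037 to 0.051, Cep112 from -0.055 to 0.25, Coa3 from -0.16 to 0.20 and Pfdn5 from -0.0050 to 0.22 without 1 array. Sox7 was at 0.029 after median centring, 0.030 after a further quantile normalization and 0.0051 with the Y-linked covariate; Sox30 was at -0.039 after the quantile normalization, and with that covariate Sox30, Coa3 and Pfdn5 were at -0.019, -0.028 and -0.0008. With array weights Sox18 and Coa3 were at -0.0048 and -0.019. The cause was not tested.

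Of all genes, 70 higher and 209 lower were called; without 1 array 17 to 55 and 88 to 192. Every probe set tested gave 41 higher, no moderation 7 and 48, the Y-linked covariate 34 and 117, and median centring 137 lower. Same-numbered arrays of the genotypes had deviations that correlated at -0.17, 0.09, -0.04 and 0.06, so the numbers were not taken as pairs. With the replicate number as a block 117 were lower and 49 higher, and of the relatives none was called (Sox4 at 0.20, limma adjusted p = 0.327). Lef1, Dcx and Erbb3 missed the threshold in 12 of 19 alternatives each, Etv5 in 14 and Ret in 6. Nlrp5-ps and Pcdhb21 missed it without moderation (limma adjusted p = 0.0732 and 0.0678). Lef1 and Dcx missed it after median centring (limma adjusted p = 0.0654 and 0.0518) and without moderation (0.118 and 0.155), and Erbb3 with the replicate block (0.0633). Genes near the lower end of the signal, such as Sox3 and Sox2, have their differences compressed.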
